A study of Mus musculus with 4 samples.

Results

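The 4 genes of the Lef and Tcf family, Lef1, Tcf7, Tcf7l1 and Tcf7l2, were examined for Gata6 binding in keratinocytes that carry a truncated form of one of them. The members were the listed Gata6 peaks whose midpoint fell, on build mm9, in a window around each gene: chromosome 3 from 130.61 to 131.13 Mb for Lef1, chromosome 11 from 51.96 to 52.2 Mb for Tcf7, chromosome 6 from 72.47 to 72.84 Mb for Tcf7l1 and chromosome 19 from 55.71 to 56.11 Mb for Tcf7l2. There were 11 such peaks, 0.0906% of the list, and the other 12126 listed peaks lay elsewhere. The windows held 3 at Lef1, 1 at Tcf7, 4 at Tcf7l1 and 3 at Tcf7l2. Of these, 5 fell inside the approximate gene intervals and 6 in the flanks.

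Chromatin came from primary dorsal skin keratinocytes of C57BL6/CBA background, and 2 libraries were immunoprecipitated with Gata6 antibodies from different vendors, 1 with a Flag antibody as negative control, and 1 was input DNA. All 4 libraries came from cells with the K14deltaNLef1 transgene, spelled K14deltaNLef1N for the first Gata6 library, and all were infected with a Gata6-overexpressing lentivirus, so no group had endogenous Gata6 alone or lacked the transgene. The keratin 14 promoter drives the transgene in basal epidermal cells, and the cells grew on irradiated 3T3-J2 feeders, which are also mouse cells; no age of the mice is stated. The protocol text names truncated Lef1 complexes as the precipitated material, but the sample titles and the antibody fields name Gata6 and Flag, and these were followed. The data are a single overlap list of peak intervals with no value per library, so there were no replicates, libraries could not be compared with a test, and each locus was set beside its own chromosome. A peak list holds no expression, so the labelled cell type could not be checked against its markers.

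Lef/Tcf proteins bind DNA through a high-mobility-group box and are the nuclear partners of beta-catenin in canonical Wnt signalling. Beta-catenin binds their N-terminal end and turns them into activators, and without it they recruit Groucho/TLE corepressors. A Lef1 that lacks this end cannot bind beta-catenin and acts in a dominant-negative way. In skin, Lef1 marks the hair matrix and dermal papilla and Tcf7l1 is found in the hair follicle bulge, and epidermal expression of truncated Lef1 is known to divert follicles towards sebaceous and interfollicular fates. Gata6 is a zinc-finger factor that recognises the core letters GATA and is found in the sebaceous duct and upper follicle.

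No mm9 sequence was used here, so the bound intervals cannot be printed. The RefSeq table of promoter windows, on build GRCm38.p6, gave 9 annotated start sites for the family. Each window held 250 bases before and 50 bases after the start. There were 4 for Lef1, 2 for Tcf7, 1 for Tcf7l1 and 2 for Tcf7l2. The first 2 Lef1 starts lie 0.026 kb apart, so their windows largely overlap and the 9 are not separate sequences. GATA words, searched as AGATAA or AGATAG and TGATAA or TGATAG on both strands, occurred in 2 of these 9 windows, against 29.8% of all 32817 promoter windows in that table. Lef/Tcf words, searched as CTTTGAA and CTTTGAT on both strands, occurred in 0 of the 9, against 8.65% of all windows. These words do not cover every spelling of the motif. CTTTGTT and CTTTGTA were not searched. CTTTGTT occurs in the internal Tcf7l2 window below. CTTTGTA occurs, on the reverse strand, in the internal Lef1 window below. The windows printed are the 2 with GATA words, which lie at internal starts of Lef1 and Tcf7l2, and the first start of Tcf7l2, the gene with the Gata6 peak closest to an approximate 5′ edge. Capitals mark the GATA words. Positions are those of GRCm38.p6 and cannot be compared with the mm9 positions of the peaks, and no peak was placed on these sequences.
Tcf7l2 first start, chr19:55741560-55741859, plus strand: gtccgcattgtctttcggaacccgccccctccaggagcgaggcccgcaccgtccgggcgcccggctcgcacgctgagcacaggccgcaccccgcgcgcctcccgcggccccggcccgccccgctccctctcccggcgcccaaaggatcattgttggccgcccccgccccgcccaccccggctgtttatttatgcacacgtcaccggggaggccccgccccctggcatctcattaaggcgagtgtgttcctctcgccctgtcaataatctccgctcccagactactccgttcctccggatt
Tcf7l2 internal start, chr19:55895071-55895370, plus strand: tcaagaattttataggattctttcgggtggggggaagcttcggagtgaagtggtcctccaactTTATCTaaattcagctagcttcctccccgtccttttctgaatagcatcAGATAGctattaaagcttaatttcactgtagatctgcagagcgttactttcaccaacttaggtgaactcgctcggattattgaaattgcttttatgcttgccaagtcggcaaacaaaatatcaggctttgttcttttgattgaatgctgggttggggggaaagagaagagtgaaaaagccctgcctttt
Lef1 internal start, chr3:131156044-131156343, plus strand: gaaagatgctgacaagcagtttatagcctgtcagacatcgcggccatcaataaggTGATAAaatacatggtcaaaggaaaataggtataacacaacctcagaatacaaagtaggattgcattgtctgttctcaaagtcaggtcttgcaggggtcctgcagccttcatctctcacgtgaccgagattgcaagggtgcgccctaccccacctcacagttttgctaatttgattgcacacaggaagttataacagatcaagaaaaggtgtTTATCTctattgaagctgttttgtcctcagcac
The internal Tcf7l2 start lies 153.5 kb downstream of the first on GRCm38.p6, and the internal Lef1 start, the last of its 4, lies 46.0 kb downstream of the first. The 2 windows with GATA words had G and C at 42.0% and 43.7% of bases, whereas the first Tcf7l2 window had 70.0%. A match is a run of letters and not a binding site, and a window without one says nothing about binding there.

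Each deposited peak is named by its chromosome and a whole number, and no source used here states what that number counts. It is called the name number, and its percentile is the share of the chromosome's listed peaks with an equal or lower number.

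**Figure D1:**
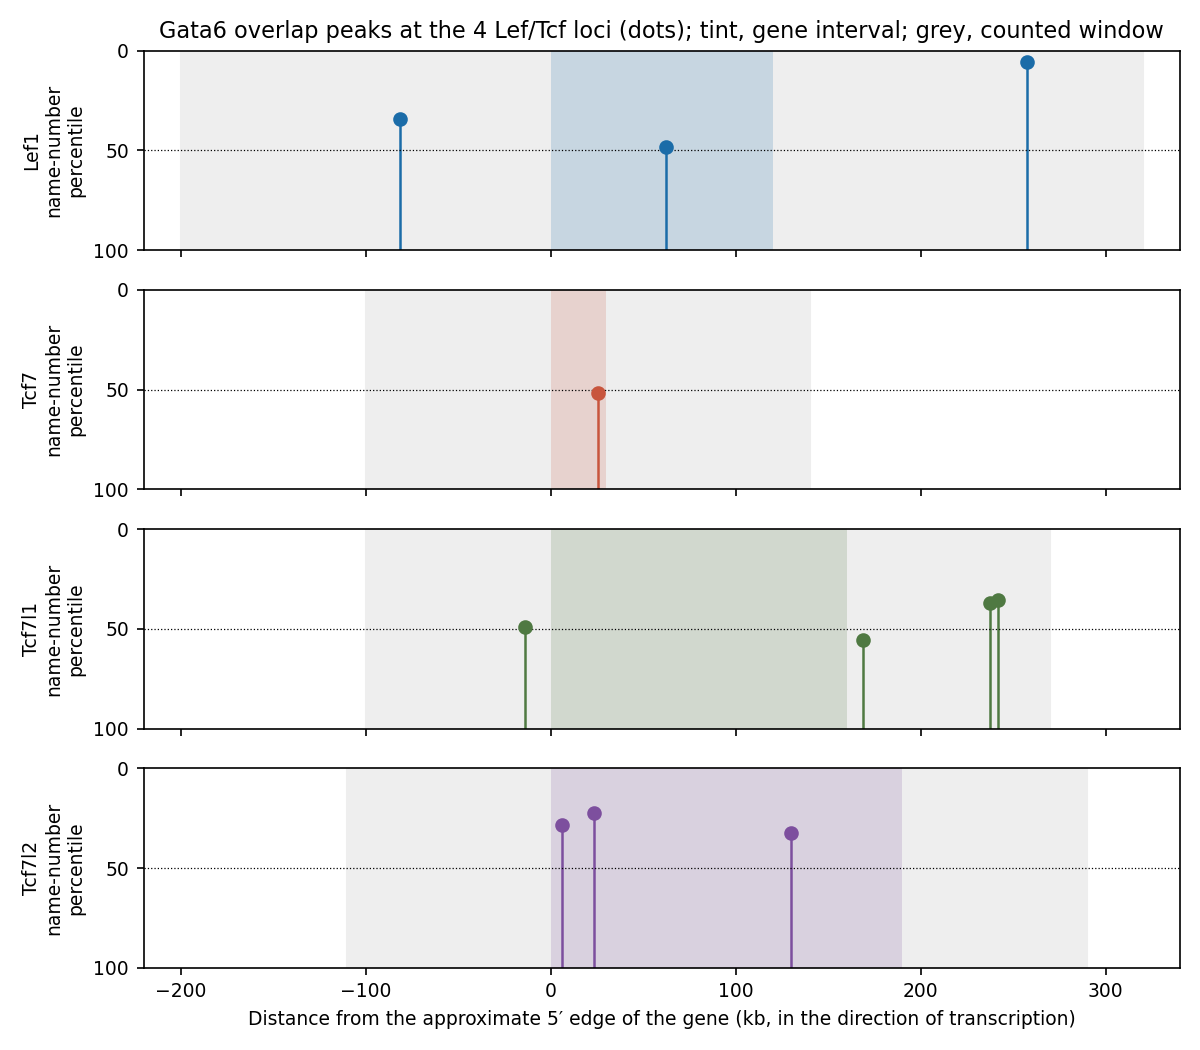
Listed Gata6 peaks (dots) at Lef1, Tcf7, Tcf7l1 and Tcf7l2, by distance in kb from the approximate 5′ edge of the gene (x axis, direction of transcription to the right) and by percentile of the name number among the listed peaks of the chromosome (y axis, low numbers at the top; dotted line, the median). Tint marks the gene interval and grey the counted window. The 3 Tcf7l2 peaks lie inside the gene interval and on the low-number side of the median, and the 160-kb Tcf7l1 interval holds none while 4 peaks lie around it.

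Tcf7l2 encodes the Wnt effector also called Tcf4, which is needed for intestinal stem cells. Its 3 peaks all lay inside the gene interval, taken as 55.82 to 56.01 Mb. The first, at chr19:55826119-55826265, was 6.19 kb downstream of the 5′ edge. The second, at chr19:55843498-55843621, was 23.6 kb downstream of that edge. The third, at chr19:55950003-55950155, was 130 kb downstream, 68.5% of the way through the interval. Thus 2 of the 3 were in the first 12.4% of the gene interval, and both flanks of the window were empty. Gene edges are rounded to 10 kb, so each of these distances carries an uncertainty of that order.

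The surroundings of Tcf7l2 were sparse. The nearest listed peak on the left lay 485 kb from the first of the 3, and the nearest on the right 681 kb from the last. They carried name numbers 992 and 818 and were 166 and 107 bp wide. These stretches were longer than 92.7% and 94.6% of the distances between neighbouring peaks on chromosome 19, whose median was 31.3 kb. The 3 peaks at Tcf7l2 were thus the only listed ones in 1.29 Mb. Within the group, the first 2 lay 17.4 kb apart and the last 2 lay 107 kb apart. In the RefSeq gene order Vti1a, a vesicle-transport SNARE, precedes Tcf7l2 and Habp2, a hyaluronan-binding serine protease, follows it.

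The density at Tcf7l2 was 7.5 peaks per Mb of window, against 7.36 per Mb on chromosome 19, a ratio of 1.02 with a 95% exact Poisson interval of 0.210 to 2.98. Of 144 windows of 400 kb laid along the chromosome, 61 (42.4%) held 3 or more peaks. For the gene interval alone the ratio was 2.15 (0.443 to 6.27), and 20.7% of 304 windows of 190 kb held 3 or more. A count of 3 peaks was therefore common on this chromosome for the window and less so for the gene interval. The intervals here and below cover counting error only. Peaks varied more between windows than independent counts would: the 400-kb windows had a mean of 2.90 peaks with an SD of 3.71, so these intervals are too narrow.

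The Tcf7l2 peaks carried the name numbers 140, 104 and 163, where the numbers of chromosome 19 run to 1289 with a median of 273.5 over its 426 listed peaks. Sorted by number they came 122nd, 95th and 139th, at percentiles 28.6, 22.3 and 32.6. All 3 lay below the median, and their range of 10.3 percentile points was the smallest among the 3 genes with several peaks. The widths were 147, 124 and 153 bp, around the chromosome median of 143.5 bp.

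Lef1, the gene whose truncated form the cells express, is itself a known Wnt target in several tissues. It had 1 peak inside its gene interval (130.81 to 130.93 Mb), 1 upstream and 1 downstream. The internal peak, at chr3:130872121-130872270, lay 62.2 kb downstream of the 5′ edge, 51.8% of the way through the interval. The upstream peak, at chr3:130728617-130728696, lay 81.3 kb before the 5′ edge. The downstream peak, at chr3:131067308-131067442, lay 257 kb from the 5′ edge and 137 kb beyond the far end of the interval. Exons of build mm9 were not used here, so whether the internal peak overlaps a Lef1 exon, sequence that the transgene shares, was not tested.

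The Lef1 peaks lay farther apart than the median for neighbouring peaks, although the density ratio of the window, given below, was above 1. The distances between them were 144 and 195 kb, longer than 71.8% and 76.4% of the distances on chromosome 3, where the median was 48.9 kb. Peaks on that chromosome were clustered, which makes this median short. Its 520-kb windows had a mean of 2.18 peaks with an SD of 3.05, and 47.1% held none. The nearest listed peaks outside the window lay 1.70 kb beyond its left edge, with number 837 and width 133 bp, and 18.6 kb beyond its right edge, with number 730 and width 139 bp. The density was 5.77 peaks per Mb at Lef1, against 4.20 per Mb on chromosome 3, a ratio of 1.37 (95% Poisson interval 0.283 to 4.02). Of 297 windows of 520 kb, 93 (31.3%) held 3 or more peaks, and 25.5% of 1290 windows of 120 kb held at least 1, as the gene interval did. Both counts were ordinary for the chromosome. By RefSeq order Rpl34, a ribosomal protein gene, lies upstream of Lef1 and Hadh, a mitochondrial fatty-acid oxidation gene, downstream.

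The name numbers of the Lef1 peaks differed widely. The downstream peak carried number 36, the 36th lowest of the 650 listed peaks on chromosome 3 (percentile 5.54) and the lowest percentile at any of the 4 genes. The upstream peak carried number 261 (percentile 34.2) and the internal peak number 390 (percentile 48.3), where the chromosome median was 411 and its highest number 1694. The lowest number therefore belonged to the peak farthest from the gene, and the peak inside Lef1 had a number near the chromosome median. The upstream peak was also the narrowest of all 11, at 80 bp. The internal peak was 150 bp and the downstream peak 135 bp wide.

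Tcf7l1, also called Tcf3, acts mainly as a repressor of Wnt targets and keeps follicle and epidermal progenitors undifferentiated. It had 4 peaks in its window, the highest count of the 4 loci, but none in its gene interval of 72.58 to 72.74 Mb. On the minus strand of chromosome 6, 1 peak lay upstream, at chr6:72753703-72753825, 13.8 kb before the 5′ edge. Beyond the 3′ end lay 3, of which the nearest, at chr6:72571061-72571216, was 8.86 kb past the edge, within the 10 kb to which edges are rounded. The other two, at chr6:72502267-72502417 and chr6:72497954-72498109, lay 77.7 and 82.0 kb past it. They were 4.31 kb apart, the only pair within 5 kb at any of the 4 genes, so 2 of 11 members had a neighbour that close, against 24.1% of the 2955 listed peaks on the 4 chromosomes.

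The empty stretch over Tcf7l1 measured 183 kb from peak to peak, longer than 82.4% of the distances on chromosome 6. Of 902 windows of 160 kb on that chromosome 61.4% held no peak, so an empty interval of this length was common. A count of 0 over 160 kb allows a density of up to 18.8 peaks per Mb by the limit of 3 counts, and up to 23.1 by the two-sided 95% Poisson interval used for the other counts, both above the 6.37 per Mb of chromosome 6, and a lower density inside the gene was not detectable. The whole window held 10.8 peaks per Mb, against those 6.37 per Mb, a ratio of 1.70 (95% Poisson interval 0.463 to 4.35). Of 390 windows of 370 kb, 102 (26.2%) held 4 or more. By RefSeq order Kcmf1, a ubiquitin ligase gene, lies upstream of Tcf7l1 and Tgoln1, a trans-Golgi protein gene, downstream, and the 3 peaks past the 3′ end lie on the Tgoln1 side.

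The Tcf7l1 peaks carried middling numbers. The close pair had numbers 378 and 398, percentiles 35.7 and 37.0, next to each other in position and similar in number. The peak just past the 3′ edge had number 661 (percentile 55.4), the highest percentile of the 11, and the upstream peak had number 560 (percentile 49.0), where the chromosome 6 median was 570.5 and the highest number 3351. Widths were 156, 151 and 156 bp for the 3 downstream peaks and 123 bp for the upstream one, against a chromosome median of 145 bp. The nearest peaks outside the window lay 7.44 kb beyond its left edge, with number 156 and width 166 bp, and 104 kb beyond its right edge, with number 470 and width 158 bp.

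Tcf7, also called Tcf1, is best known for its role in T-cell development and memory. Its window held a single peak, at chr11:52074467-52074587, inside the gene interval of 52.07 to 52.1 Mb. On the minus strand this is 25.5 kb downstream of the 5′ edge and 4.53 kb short of the far end, and 10-kb rounding leaves its place inside the gene uncertain. The nearest listed peaks lay 181 kb to the left (number 173, width 165 bp) and 188 kb to the right (number 670, width 93 bp), stretches longer than 83.9% and 84.8% of the distances on chromosome 11, where the median was 38.2 kb. The nearest peaks thus lay 66.3 and 62.8 kb outside the window edges. By RefSeq order Vdac1, a mitochondrial outer-membrane channel gene, lies upstream and Skp1, an SCF ubiquitin ligase subunit gene, downstream.

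The Tcf7 window had 4.17 peaks per Mb, against 8.09 per Mb on chromosome 11, a ratio of 0.515 with a 95% Poisson interval of 0.0130 to 2.87. This was the only one of the 4 window ratios below 1, and its interval is too wide to separate it from the others. For the gene interval alone the ratio was 4.12 (0.104 to 23.0), on the other side of 1, from the same single peak. Of 493 windows of 240 kb, 296 (60.0%) held 1 or more peaks, and 17.8% of 3949 windows of 30 kb held at least 1, as the gene interval did. The peak had number 669, the 494th lowest of 959 (percentile 51.5), next to the chromosome median of 647. Its width was 121 bp, against a chromosome median of 143 bp.

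**Figure D2:**
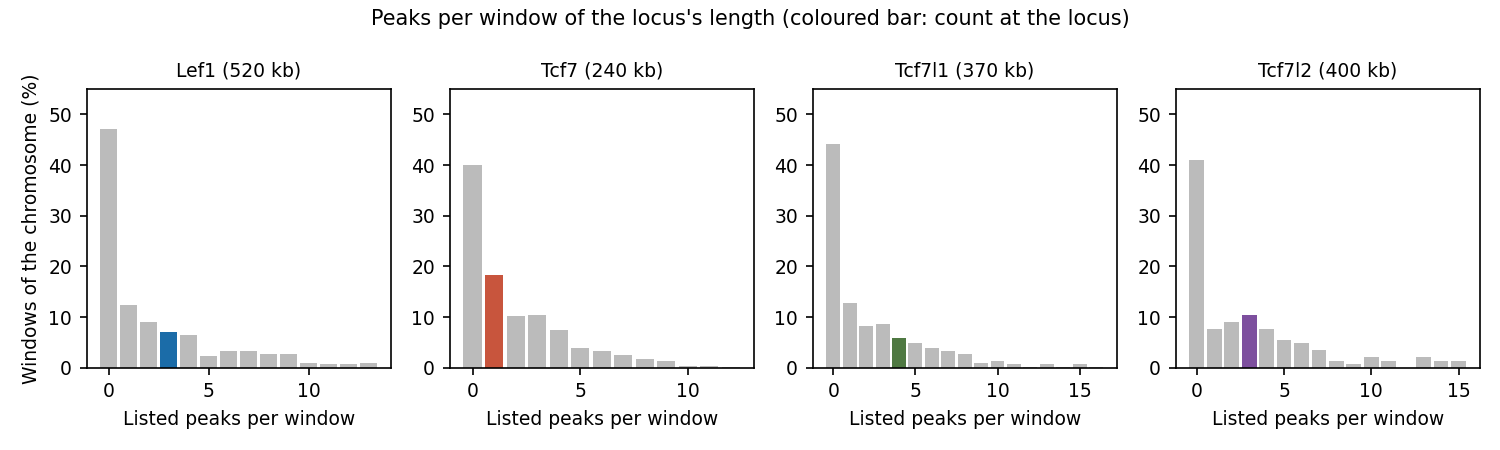
Share of windows (y axis, %) by number of listed peaks (x axis) on the chromosome of Lef1, Tcf7, Tcf7l1 and Tcf7l2, for windows of the length counted at each gene (520, 240, 370 and 400 kb), with the coloured bar at the count found at the gene. All 4 coloured bars lie among counts shared with many other windows: 31.3%, 60.0%, 26.2% and 42.4% of windows held at least that many.

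Across the family, 11 peaks were counted, against 9.42 that the densities of the 4 chromosomes give for 1.53 Mb of windows, a ratio of 1.17 (95% Poisson interval 0.583 to 2.09). In the 0.50 Mb of gene intervals 5 were counted, against 3.16, a ratio of 1.58 (0.513 to 3.69). Neither ratio differed from 1 beyond its counting error. The order of the window densities was Tcf7l1, Tcf7l2, Lef1 and Tcf7, with the values given above, and all 4 intervals overlapped. By ratio to the chromosome Lef1, at 1.37, came before Tcf7l2, at 1.02. With flanks of double length the ratios were 2.98 at Tcf7l1, 0.668 at Tcf7l2, 2.07 at Lef1 and 1.37 at Tcf7, so those of Tcf7l2 and Tcf7 came to the other side of 1. With the 1-Mb windows that held a peak as the span of the chromosome, those of Lef1 and Tcf7l2 fell below 1, at 0.95 and 0.845.

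**Figure D3:**
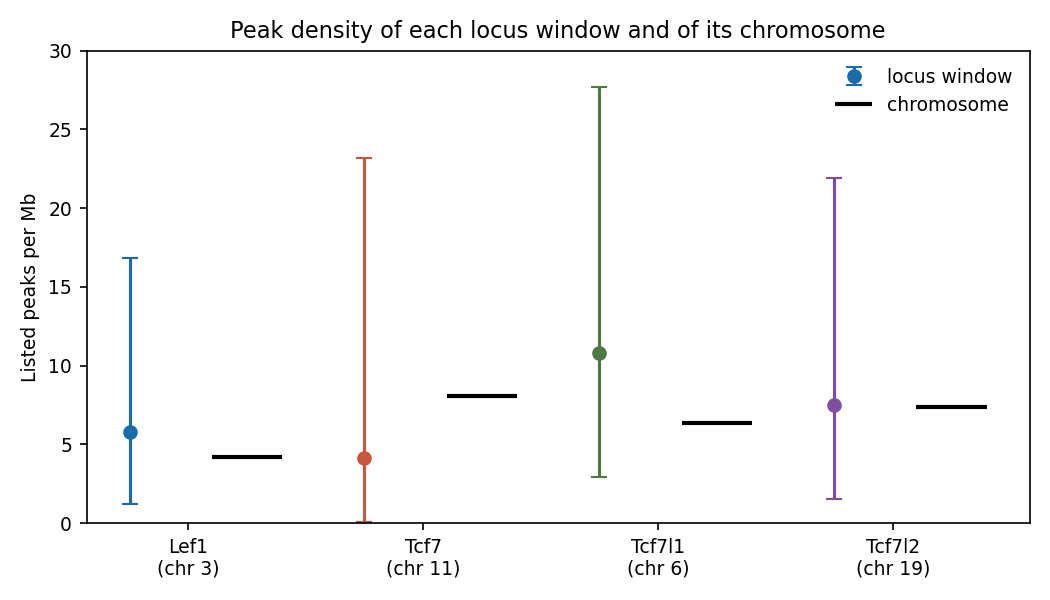
Listed peaks per Mb (y axis) in the window of each gene (dots, with 95% exact Poisson intervals of the count) and on its chromosome (black lines). The interval of each of the 4 windows spans the density of its chromosome.

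The genes differed in where their peaks lay. At Tcf7l2 3 of 3 and at Tcf7 1 of 1 were inside the gene interval, against 1 of 3 at Lef1 and 0 of 4 at Tcf7l1. No peak lay within 5 kb of an approximate 5′ edge, and the closest was the one 6.19 kb into Tcf7l2. Edges are rounded to 10 kb, so a peak within 5 kb of a true start is not excluded. The share of all listed peaks this close to a gene start was not counted. Outside the genes 2 peaks were upstream and 4 downstream. These counts are too small for an order among the genes.

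Most members stood apart from other peaks. For 9 of 11, the nearest listed peak lay farther away than the median for the chromosome, and the exceptions were the close pair downstream of Tcf7l1. The median distance to the nearest listed peak was 81.3 kb over the 11 members, against 16.0 kb over all peaks of the 4 chromosomes. A median over peaks weighs dense stretches most, since these hold many peaks. The longer distances therefore do not show windows poor in peaks, and the family count had a ratio of 1.17 to that of the chromosomes. At Lef1 the nearest distances were 120, 144 and 81.3 kb, against a chromosome median of 17.7 kb. At Tcf7l2 the first 2 peaks, 17.4 kb from each other, were only slightly farther apart than the chromosome 19 median of 12.3 kb. Members that are each other's nearest neighbour share 1 distance, so these are not independent values, and no test was made.

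**Figure D4:**
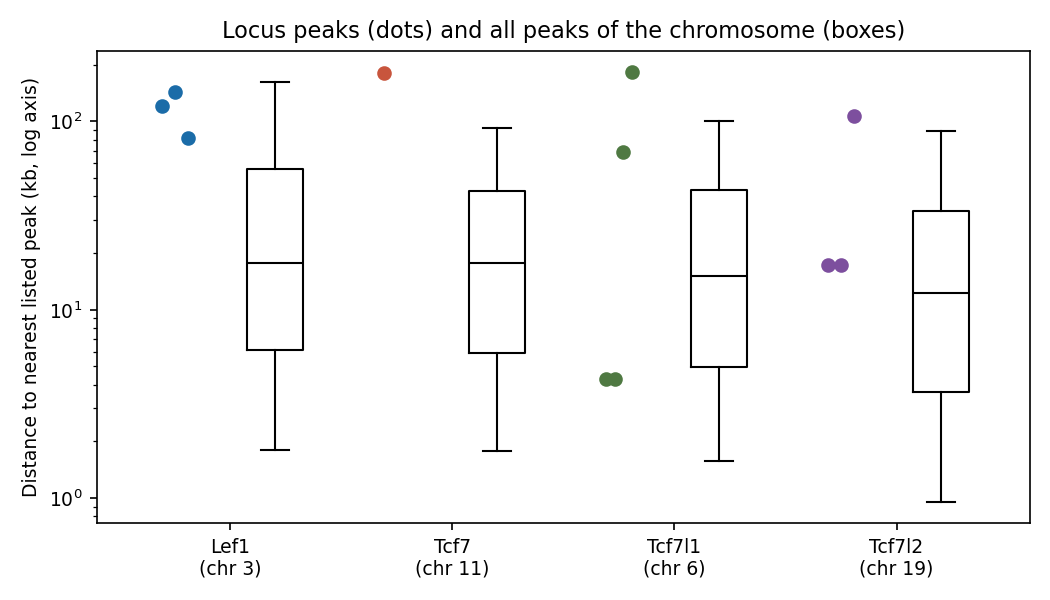
Distance to the nearest listed peak (y axis, kb, log axis) for the peaks at each gene (dots, left) and for all listed peaks of its chromosome (boxes, right: median, quartiles, and whiskers at the 10th and 90th percentiles). The Lef1 peaks, at 81.3 to 144 kb, the Tcf7 peak, at 181 kb, 2 peaks at Tcf7l1 and 1 at Tcf7l2 lie above the upper quartile of their chromosome, while the close Tcf7l1 pair lies at 4.31 kb.

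By name number, 9 of 11 members lay at or below percentile 50 of the listed numbers of their chromosome and 2 at or below percentile 25, number 36 downstream of Lef1 and number 104 inside Tcf7l2. Percentiles ranged from 5.54 to 55.4 with a median of 35.7. Widths ranged from 80 to 156 bp with a median of 147 bp, against 143 bp over the whole list. At 83 bp or less there was 1 of 11, the peak upstream of Lef1, against 9.11% of all listed peaks. How the deposited intervals relate to whole binding sites is not known, since no source used here says how the overlap was made.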

How the data were processed

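Gata6 ChIP-seq peaks of primary mouse keratinocytes were analysed as 1 overlap list for the series. Per the submitters' processing notes, BWA, HOMER and build mm9 were used; no source used here gives their versions, which lists were intersected and how, the threshold of peak calling, or how the control libraries entered. The authors deposited a score of 0 and a plus strand for every peak, so neither was used. Library depth is unknown. Intervals were read as mm9 coordinates, made 1-based, and placed by midpoint.

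The gene intervals are approximate mm9 positions rounded to 10 kb, and strand, gene order and promoter windows came from RefSeq tables of build GRCm38.p6, from which no position was carried to mm9. The peak windows, genes and measures were chosen with earlier results of these data known. Every peak in the 4 windows is reported. Chromosome density was the number of peaks over the span from first to last peak. Windows of the same length were laid outward from each locus without overlap, keeping complete ones. Percentiles are the share of a chromosome's listed peaks with an equal or lower name number. Intervals are 95% exact Poisson, for counting error only, and no p-value was computed. Counts of 0 carry a limit of 3 counts. Planted peaks were recovered when the functions were tested on simulated data, which checks the counting only. Alternatives were the region counted, peaks wider than 83 bp, peaks within 1 kb merged, another span, another grid, another scale of the name number and, chosen after seeing the data, gene edges moved by 10 kb. A list of other Wnt pathway genes was not counted, for want of mm9 gene positions, and no protein sequences were compared. Python 3.11.15, NumPy 2.4.6, pandas 2.3.3, SciPy 1.17.1 and matplotlib 3.10.9 were used.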

Additional observations from a re-analysis of the deposited data

How the results depend on the processing

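No paired analysis was possible because the list holds no value per library, and for the same reason no library could be left out. Of 55 alternative values 44 kept the size of the reported one within its counting interval or the spread of the peaks. These limits are wide at counts of 1 to 4 peaks, and the Tcf7l1 ratio of 2.98 with double flanks passed as kept. Some alternatives counted the same peaks and could not differ, as inside the Tcf7l2 interval. The share kept is therefore no measure of how stable the results are. The density ratio at Lef1 reached at most 2.07. Changing the region counted moved 4 density ratios: the Tcf7 ratio was 4.12 in the gene interval and 0 in the flanks, the Tcf7l1 ratio was 0 in the gene interval, and the Tcf7l2 ratio was 0 in the flanks. With gene edges moved inward by 10 kb the Tcf7 interval held 0 peaks in place of 1, and with edges moved outward the Tcf7l1 interval held 1 in place of 0. As percents of the chromosome's highest name number, medians were 15.4 at Lef1, 22.2 at Tcf7, 14.3 at Tcf7l1 and 10.9 at Tcf7l2. All lie below the percentiles, but this scale is lower for whole chromosomes too. Their median numbers were 411 of 1694, 647 of 3020, 570.5 of 3351 and 273.5 of 1289, in the same order. On either scale the Tcf7 peak, number 669, lay above its chromosome median. Among peaks wider than 83 bp the Tcf7 percentile was 54.0, and 38.7% of windows held at least as many peaks as Lef1, which then loses its 80-bp peak. No median distance between neighbours could be had at Tcf7, nor one inside the Lef1 and Tcf7l1 intervals, nor a median number inside Tcf7l1. Counts of 1 to 4 peaks limit every comparison.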

Other observations

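With flanks of double length the Tcf7l1 region held 11 peaks in 0.58 Mb, against 3.69 that the density of chromosome 6 gives. The ratio was 2.98 (95% Poisson interval 1.49 to 5.33). How many other windows of the doubled lengths hold as many peaks was not counted for any of the genes. All 7 added peaks lay past the 3′ end of the gene, on the side of Tgoln1 in the RefSeq order, and none on the side of Kcmf1. The adjoining 370-kb window on the Tgoln1 side held 13 peaks, so the doubled region reaches into a denser stretch. Lef1 had 8 peaks in 0.92 Mb, against 3.86, a ratio of 2.07 (0.894 to 4.08), with 4 of the 5 added peaks on the upstream side, where Rpl34 lies. Tcf7 had 5 in 0.45 Mb, against 3.64, a ratio of 1.37 (0.446 to 3.2). At Tcf7l2 no peak was added, and the ratio was 0.668 (0.138 to 1.95). Peaks vary more between windows than independent counts do, so these intervals are too narrow, and which gene the added peaks belong to was not tested.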
